A study of Mus musculus with 4 samples.

Results

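The 4 Notch receptors *Notch1*, *Notch2*, *Notch3* and *Notch4*, the 4 Notch ligands *Dll1*, *Dll4*, *Jag1* and *Jag2*, and the 2 target genes *Hey1* and *Hey2* were examined in mouse embryonic hearts at E9.5 by ATAC-seq, in which the Tn5 transposase marks open chromatin for sequencing. They are 10 of the 21938 protein-coding genes of the GENCODE M21 annotation and were chosen as a named pathway, not by a measured value. Earlier results of these data were known when the genes, the comparison lists and the motifs were chosen. WT hearts were compared with *Smyd1-KO* hearts, which were homozygous for a null allele of *Smyd1* in the whole embryo. SMYD1 methylates histones and is restricted to striated muscle. Each genotype had 2 libraries, and each library was made from 4 pooled hearts, from which 40000 viable cells were taken. Peaks were called from the pooled libraries of a genotype, and only those with a difference in tags of at least 2-fold are in the lists used here. There were 25745 peaks with more tags in *Smyd1-KO* hearts (*Smyd1-KO*-enriched) and 106 with more in WT hearts (WT-enriched). A tag is an aligned read, and a peak's score is the authors' tag value for it in the pooled libraries of the genotype where it was called. All *Smyd1-KO* scores were multiples of 0.5 tags. Since the libraries were pooled, no value here has a replicate error, and the level of a *Smyd1-KO*-enriched peak in WT hearts was not analysed here. A peak was counted for a gene where it overlapped the gene body or lay within 10 kb of one of its transcription start sites (TSSs).

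Notch receptors are membrane proteins that are activated by Delta-like and Jagged ligands on neighbouring cells. Ligand binding leads to proteolytic release of the intracellular part of the receptor, which enters the nucleus and joins the DNA-binding protein RBPJ to switch on target genes such as the *Hes* and *Hey* repressors. In the embryonic heart the pathway is known for its work in the endocardium, where it directs trabeculation of the ventricles and formation of the valves, and *Hey2* is also a gene of the compact ventricular myocardium.

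Chromatin at 9 of these 10 genes carried at least 1 *Smyd1-KO*-enriched peak, and no gene carried a WT-enriched peak. *Dll1* was the gene without a peak. The 9 genes held 15 peaks, with scores from 175 to 924.5 tags and a median of 317.5. The median was 488 when the distance to a TSS was limited to 3 or 5 kb, and the number of peaks was 25 with a limit of 20 kb. The highest scores belonged to the effectors *Hey1* and *Hey2*. Of all protein-coding genes, 62.6% had a *Smyd1-KO*-enriched peak under the same rule and 0.155% had a WT-enriched peak. Most protein-coding genes thus met the rule, and no test set the 9 of 10 apart from that share.

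The DNA under these peaks was rich in G and C, and the letters GGGCGG, the core of the GC box bound by SP and KLF factors, were the only searched motif found at most of the genes. For 8 of the 9 genes with a peak, all but *Hey1*, the highest-scoring peak free of UTR sequence is shown, or the upstream part of a peak that covers the TSS, on the gene's sense strand from 5′ to 3′ in mm10. Capitals mark matches to GGGCGG or its reverse complement. *Notch1* (chr2:26503825-26503929, minus strand) and *Notch2* (chr3:98013426-98013526, plus strand) show the DNA just upstream of the TSSs that their peaks cover. *Hey2* (chr10:30842802-30842937, minus strand) shows the same for the peak with the highest score. *Jag1* (chr2:137117390-137117538, minus strand) and *Jag2* (chr12:112929941-112930089, minus strand) show whole upstream promoter peaks. The higher-scoring *Jag2* peak that covers a *Nudt14* TSS is not shown. *Notch3* (chr17:32166042-32166190, minus strand) shows the upstream one of its intronic peaks. *Dll4* (chr2:119338008-119338156, plus strand) and *Notch4* (chr17:34592083-34592231, plus strand) show peaks beyond the 3′ end of the gene.
Notch1: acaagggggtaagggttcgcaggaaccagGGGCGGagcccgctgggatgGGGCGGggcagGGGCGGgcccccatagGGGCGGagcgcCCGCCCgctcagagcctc
Notch2: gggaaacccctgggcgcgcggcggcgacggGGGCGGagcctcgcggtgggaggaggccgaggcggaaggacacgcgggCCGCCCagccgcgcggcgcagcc
Notch3: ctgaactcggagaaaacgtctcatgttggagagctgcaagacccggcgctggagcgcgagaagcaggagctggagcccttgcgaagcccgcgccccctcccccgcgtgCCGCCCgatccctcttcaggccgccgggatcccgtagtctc
Notch4: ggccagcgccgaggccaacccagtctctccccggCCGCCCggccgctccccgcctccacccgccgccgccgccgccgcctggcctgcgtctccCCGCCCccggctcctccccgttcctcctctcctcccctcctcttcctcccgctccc
Dll4: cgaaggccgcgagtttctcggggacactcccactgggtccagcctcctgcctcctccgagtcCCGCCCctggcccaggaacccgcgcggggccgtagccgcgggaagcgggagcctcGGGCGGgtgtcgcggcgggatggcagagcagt
Jag1: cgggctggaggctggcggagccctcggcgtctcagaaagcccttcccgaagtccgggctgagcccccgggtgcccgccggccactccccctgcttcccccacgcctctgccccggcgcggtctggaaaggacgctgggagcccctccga
Jag2: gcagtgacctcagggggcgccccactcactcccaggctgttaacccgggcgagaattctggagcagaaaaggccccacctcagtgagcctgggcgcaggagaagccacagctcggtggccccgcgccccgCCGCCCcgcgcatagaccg
Hey2: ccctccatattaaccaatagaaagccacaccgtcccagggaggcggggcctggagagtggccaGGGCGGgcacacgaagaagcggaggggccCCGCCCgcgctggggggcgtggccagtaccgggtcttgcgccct

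All the intervals in the deposited lists were 149 bp wide, so the peaks differ in place and score but not in width. Of the 15 peaks, 9 overlapped a gene body and 6 lay outside. For each gene the main coding TSS was taken as the 5′-most start of its basic protein-coding transcripts. By that measure 8 peaks at 7 genes lay within 1 kb of the gene's own main start, and those 7 genes were *Notch1*, *Notch2*, *Notch3*, *Jag1*, *Jag2*, *Hey1* and *Hey2*. Among the 21851 protein-coding genes with such a start, 44.1% had a peak within 1 kb of it. When all annotated transcripts were taken as starts, 8 of 10 genes had a peak within 1 kb of a TSS, against 48.1% of protein-coding genes. *Notch4* was the added gene, through a short non-coding transcript. The peak covered a TSS at 4 of 10 genes, *Notch1*, *Notch2*, *Hey1* and *Hey2*, against 27.8% of protein-coding genes.

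The receptors *Notch1* and *Notch2* each had 1 peak, and it covered the TSS. The *Notch1* peak (chr2:26503781-26503929) scored 561.5 tags, with a 95% Poisson interval from 516 to 609.9. This interval treats the score as a count of tags and covers counting error only, here and below. The *Notch2* peak (chr3:98013426-98013574) scored 513 tags (469.6 to 559.4). The intervals of the 2 receptors overlap, and the difference between their scores was not tested. Both peaks reached from DNA upstream of the main coding TSS into the 5′ UTR. At *Notch1* that upstream DNA lies inside the annotated gene, whose 5′ end is farther away. *Notch1* lies on the minus strand of chromosome 2 at 26457903 to 26516663, and *Notch2* on the plus strand of chromosome 3 at 98013527 to 98150361. In the 58761 bp of *Notch1* and the 136835 bp of *Notch2* no other *Smyd1-KO*-enriched peak was found.

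*Notch3*, the receptor best known from vascular smooth muscle and pericytes, had 2 peaks in intronic sequence just inside the gene rather than on its TSS. They began 662 and 1132 bp downstream of the TSS and were 321 bp apart. The peak nearer to the TSS (chr17:32166042-32166190) scored 260 tags (229.4 to 293.6) and the farther one (chr17:32165572-32165720) scored 235 tags (205.9 to 267). Their intervals overlap, and both lie below the intervals of the *Notch1* and *Notch2* promoter peaks.

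*Notch4*, a receptor of endothelial cells, differed from the other receptors in where its peaks lay. No peak lay within 1 kb of its main coding TSS. Its first peak (chr17:34587470-34587618) scored 664.5 tags (614.9 to 717), the highest among the receptors, and lay in coding sequence near the 3′ end of the gene, 23202 bp downstream of the main TSS. That place is 429 bp from the start of a short non-coding *Notch4* transcript and 2188 bp from the TSS of *Gpsm3*. The second peak (chr17:34592083-34592231) scored 317.5 tags (283.5 to 354.4), lay outside the gene and was 32 bp from a TSS of the neighbouring homeobox gene *Pbx2*. Both peaks therefore lay nearer to the TSS of another protein-coding gene than to the main TSS of *Notch4*, and which gene they act on was not tested.

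**Figure D1:**
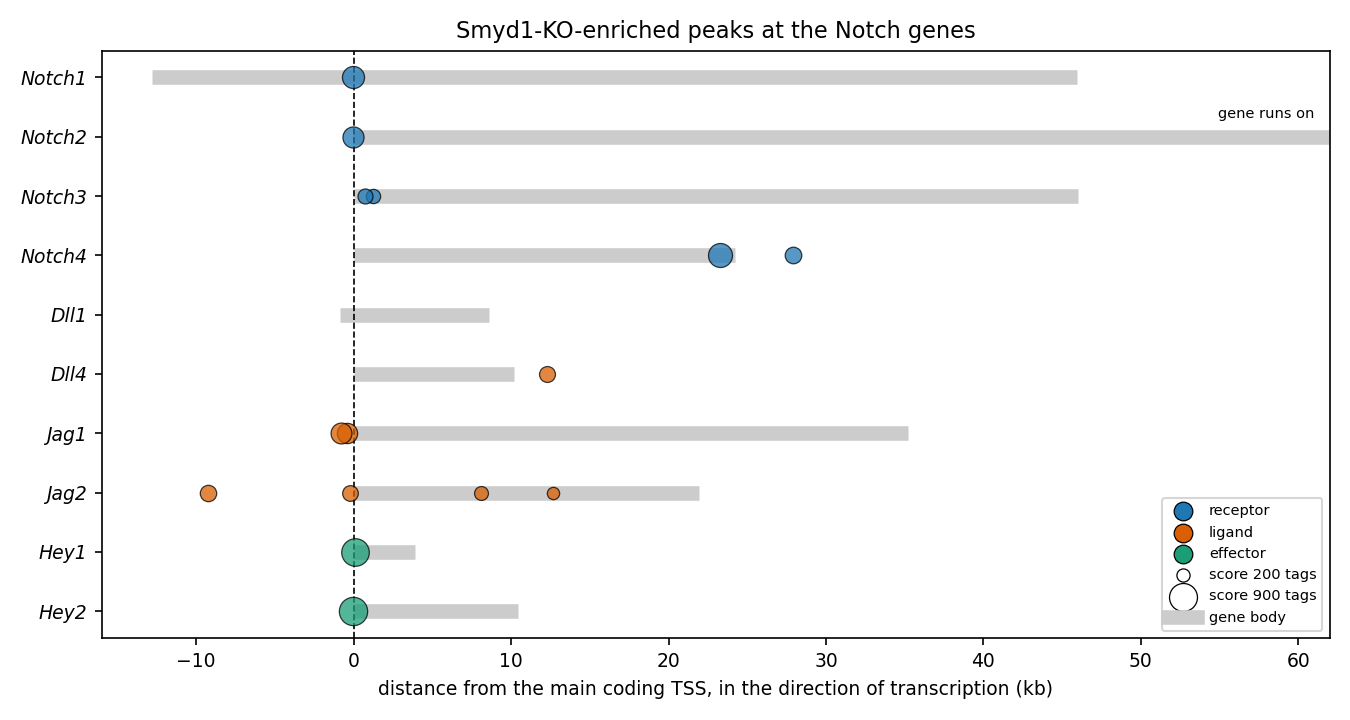
Position of the 15 *Smyd1-KO*-enriched peaks at the 10 genes, in kb from the main coding TSS (dashed line) in the direction of transcription, with gene bodies as grey bars, each circle a peak and its area the score in tags. Peaks sit on or beside the TSS of 7 genes, lie at the 3′ end or beyond at *Notch4* and *Dll4*, are spread along *Jag2*, and are missing at *Dll1*.

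The 4 ligand genes ranged from no peak to 4. *Dll1*, a Delta-like ligand with a well-known role in somite formation, had none under the rule. The gene lies on the minus strand of chromosome 17 at 15367354 to 15376872. Its nearest *Smyd1-KO*-enriched peak (chr17:15396181-15396329) lay 19309 bp from the gene, scored 338 tags and covered a TSS of *Fam120b*. *Dll4*, the main Delta-like ligand of arterial endothelium and of endocardium, had 1 peak (chr2:119338008-119338156) with a score of 292 tags (259.5 to 327.5). It lay 2046 bp beyond the 3′ end of the gene, 12224 bp from the main TSS and 9470 bp from the start of a shorter *Dll4* transcript, through which the rule counted it. The nearest TSS of another protein-coding gene, that of *Chac1*, was 13073 bp away.

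*Jag1*, the Jagged ligand that is mutated in Alagille syndrome, had 2 peaks in its upstream promoter. They began 344 bp and 746 bp upstream of the TSS and were 253 bp apart. The nearer one (chr2:137116988-137117136) scored 474 tags (432.3 to 518.7) and the farther one (chr2:137117390-137117538) scored 502 tags (459 to 547.9). The intervals overlap each other, and both overlap that of the *Notch2* promoter peak. No other gene shared these peaks under the rule, and the nearest TSS of another protein-coding gene was 211445 bp away.

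*Jag2*, the other Jagged ligand, had 4 peaks, the most of the 10 genes. Its promoter peak (chr12:112929941-112930089) began 165 bp upstream of the TSS and scored 284 tags (251.9 to 319). A peak 9177 bp upstream (chr12:112938953-112939101) scored 310 tags (276.4 to 346.5) and covered a TSS of *Nudt14*, the neighbouring gene. The intronic peaks scored 222.5 tags (194.2 to 253.7; chr12:112921625-112921773) and 175 tags (150 to 202.9; chr12:112917036-112917184), and lay 8003 and 12592 bp downstream of the main TSS. The latter was 135 bp from the start of a shorter *Jag2* transcript. It was the only one of the 15 peaks with a score under the median of all *Smyd1-KO*-enriched peaks, 180.5 tags. The *Jag2* promoter peak scored below those of *Jag1*, with intervals that do not overlap. At least 2 peaks were found at 4 of the 10 genes, against 29.4% of protein-coding genes, and at least 4 peaks at 1 of 10, against 5.02%. When peaks at most 1 kb apart were merged, *Notch3* and *Jag1* each had 1.

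*Hey1* and *Hey2* encode the basic helix-loop-helix repressors through which Notch acts in heart and vessels. Each had 1 peak, which covered the TSS and reached into the 5′ UTR. The *Hey1* peak (chr3:8667110-8667258) scored 876.5 tags (819.4 to 936.5) and the *Hey2* peak (chr10:30842789-30842937) scored 924.5 tags (865.9 to 986.1). These intervals overlap each other and lie above those of the other 13 peaks. *Hey1* spans 8663359 to 8667256 on the minus strand of chromosome 3, and *Hey2* spans 30832359 to 30842801 on the minus strand of chromosome 10. The scores of the *Hey1* and *Hey2* peaks exceeded those of 95.1% and 96.0% of all *Smyd1-KO*-enriched peaks, and those of 91.8% and 93.4% of the peaks that cover a TSS.

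**Figure D2:**
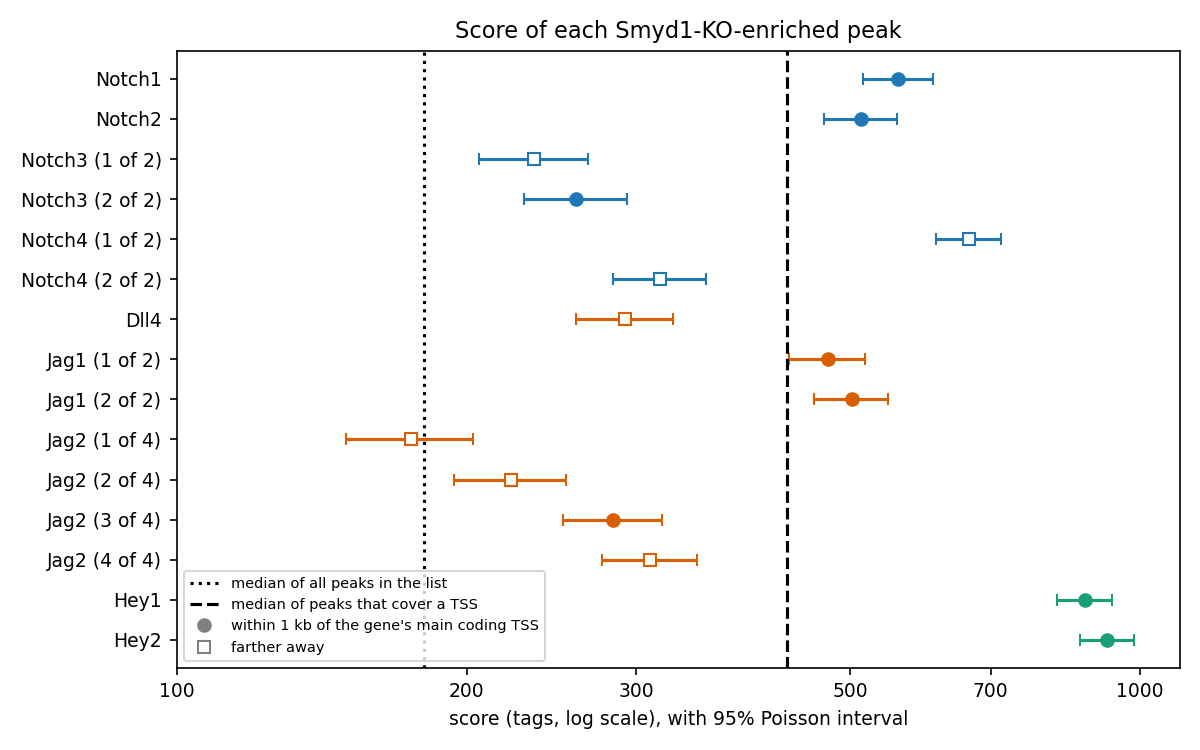
Score of each of the 15 *Smyd1-KO*-enriched peaks in pooled tags on a log axis, with 95% Poisson intervals that cover counting error only, in order of genomic position within a gene; blue marks receptors, orange ligands and green effectors. The *Hey1* and *Hey2* peaks lie to the right of all others, and 1 intronic *Jag2* peak lies under the median of all peaks in the list.

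The score of a peak followed its distance to a TSS in the whole list, and the scores of the Notch genes were read against peaks at like distances. Over all *Smyd1-KO*-enriched peaks the median score was 430 tags for the 6527 peaks that covered a TSS of any gene, 359.8 for the 5712 within 1000 bp, 128 from there to 3 kb, 102.5 from 3 to 10 kb and 81 beyond. Of the 15 peaks, 14 scored above the median of the whole list, but 10 above that of their own distance class. The *Dll4* peak, at a low score among the 15, exceeded 90.9% of the peaks that lay 3 to 10 kb from a TSS. The *Notch3* promoter-proximal peak exceeded 35.6% of the peaks within 1000 bp, and the *Jag2* promoter peak 39.1%.

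By role, the receptors had 6 peaks with a median score of 415.25 tags (range 235 to 664.5), the ligands 7 with a median of 292 (175 to 502) and the effectors 2, at 876.5 and 924.5. Per 100 kb of searched sequence, that is the gene body and 10 kb around each TSS, these were 1.88 peaks for receptors, 4.95 for ligands and 4.83 for effectors. The searched sequence was 319559 bp for receptors, with 146835 bp at *Notch2* alone, 141343 bp for ligands and 41419 bp for effectors. In these counts 2 receptor peaks and 1 ligand peak lay nearer to another protein-coding gene's TSS than to the main TSS of their own gene. A difference by role was not tested. Gene by gene the median was 4.17 peaks per 100 kb over the 10 genes and 1.75 over all protein-coding genes. *Notch2* (0.681) and *Notch1* (1.35) lay below the median of all genes, next to *Dll1* at 0. *Jag2* (10.1) exceeded 96.9% of protein-coding genes. The highest score per gene had a median of 513 tags over the 9 genes with a peak and 442 tags over all protein-coding genes with one.

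The promoters of these genes were mostly CpG-rich. A promoter counted as CpG-rich where the 1000 bp around a coding TSS had at least 55% G and C and a ratio of observed to expected CpG of at least 0.6. This held for 9 of the 10 genes, all but *Notch4*, and for 44.7% of the 21853 protein-coding genes that could be classed. Among all protein-coding genes with a CpG-rich promoter 77.4% had one of the *Smyd1-KO*-enriched peaks at most 1 kb from a TSS, and among those without one 24.5% did. Within the 9 CpG-rich Notch genes, 7 had such a peak, close to the 77.4%. The 2 without were *Dll1* (GC 62.8%, CpG ratio 0.801) and *Dll4* (GC 62.1%, CpG ratio 0.602). The *Notch4* promoter had a GC content of 54.4% and a CpG ratio of 0.162. The share of these genes with a promoter peak was thus near that of CpG-rich genes as a class. Whether it depends on base composition or on the pathway cannot be told apart here.

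**Figure D3:**
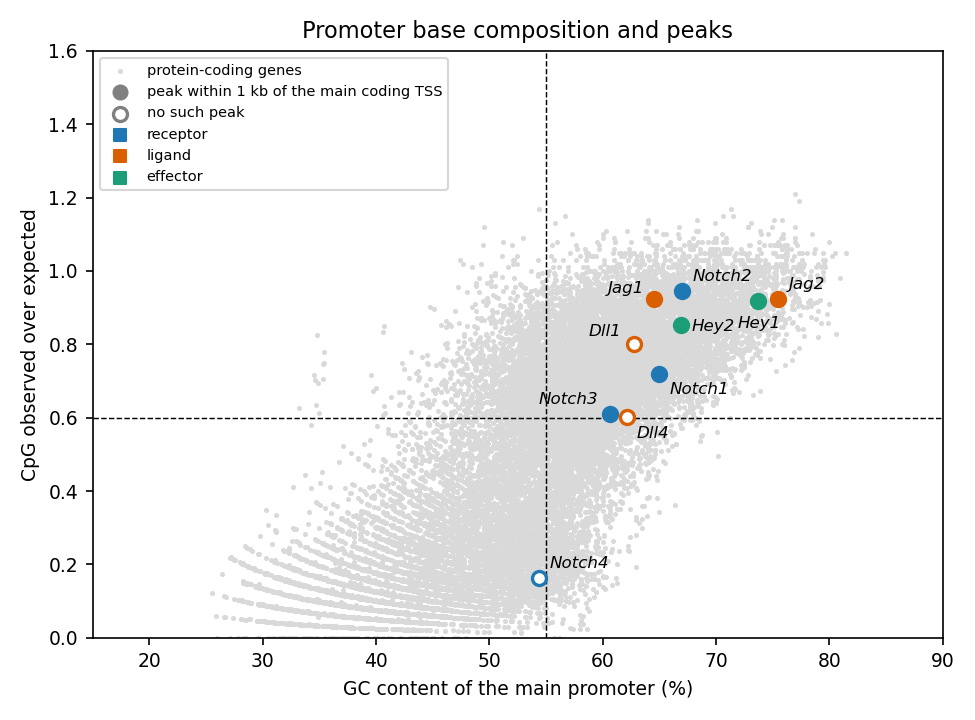
GC content in percent and ratio of observed to expected CpG in the 1000 bp around the main coding TSS, for all protein-coding genes (grey) and the 10 Notch genes (coloured by role; filled with, open without a *Smyd1-KO*-enriched peak at most 1 kb from that TSS). Dashed lines mark the limits for a CpG-rich promoter; *Dll1* and *Dll4* are open within the CpG-rich corner, and *Notch4* is open outside it.

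The sequences under the peaks were searched on both strands for 9 fixed motifs. GGGCGG was found in 11 of the 15 peaks (73.3%), at all 9 genes with a peak, against 29.1% of all *Smyd1-KO*-enriched peaks and 57.0% of those that cover a TSS. The upstream part of the *Notch1* peak printed above held 5 matches, while the printed *Jag1* peak held none and the match of *Jag1* lay in its other peak. The GC content of the 15 peaks had a median of 74.5% (range 50.3 to 80.5), against 57.7% for all peaks in the list and 67.1% for those that cover a TSS.

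The other 8 motifs, those of Notch and cardiac factors, were found in 0 to 2 of the 15 peaks, counts too low to set these peaks apart from the list. TGGGAA, the core of the RBPJ site, was found in 1 of 15 peaks (6.67%), the *Jag2* peak that covers the *Nudt14* TSS, against 12.8% of all peaks and 10.5% of those that cover a TSS. The longer GTGGGAA, which contains TGGGAA, was found in none, against 2.97% and 2.64%. CACGTG, an E-box bound by HEY proteins among others, was also found in none, against 3.24% and 5.09%. AGATAA, which factors such as GATA4 bind, was found in none of the 15 peaks, against 8.87% of all peaks but 1.67% of those that cover a TSS. CCGGAA, the core of ETS factor sites, was found in none, against 8.38% and 19.6%. The SOX motif ACAATG was not found in the 15 peaks, against 4.42% and 2.39%, nor was the MEF2 motif TAAAAATA, against 1.24% and 0.184%. GGAATG, the TEAD motif, was found in both intronic *Jag2* peaks (13.3%), against 10.6% of all peaks and 12.6% of those that do not cover a TSS. The RefSeq promoters (GRCm38, 250 bases before to 50 after the start) covered 9 of the 10 genes. Among these 9, GGGCGG was found in 6 promoters, against 35.7% of all 32851 promoters. ACAATG was found in 3 (*Notch4*, *Dll1* and *Jag1*), against 12.6%, and GGAATG in 3 (*Notch1*, *Notch4* and *Hey2*), against 14.7%. TGGGAA and GTGGGAA were found for *Hey2* alone among the 9, against 25.6% and 6.38%. The other 4 motifs were found in none of the 9, with shares from 2.72% to 14.9% of all promoters. A match is a string of letters and not a bound site.

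The rest of the pathway was counted under the same rule. Of 51 other Notch pathway genes, 46 (90.2%) had a *Smyd1-KO*-enriched peak, 36 (70.6%) had one within 1 kb of a TSS, and none had a WT-enriched peak. Over all protein-coding genes these shares were 62.6%, 48.1% and 0.155%, and 38 of the 51 genes had a CpG-rich promoter, a class in which 77.4% had a peak within 1 kb. Their 113 peaks were found in every group of these genes, from ligand handling to turnover. All 8 genes of the proteases that cleave the receptor had a peak within 1 kb of a TSS, among them *Aph1b*, a gamma-secretase subunit, whose score of 1277 tags was the highest of the list. All 7 genes of the nuclear complex did too, and *Maml1*, a coactivator of RBPJ, reached 1017 tags. Of the 5 modifier genes (*Lfng*, *Mfng*, *Rfng*, *Pofut1* and *Poglut1*), 1 had a peak within 1 kb of a TSS. CpG-rich promoters were found at all 8 protease genes, 5 of the 7 nuclear complex genes and 4 of the 5 modifier genes. Of the 8 further effectors, all had a peak under the rule but 3 had one within 1 kb of a TSS. *Hes6* reached 1103.5 tags at its TSS. The top *Hes3* peak, at 1032.5 tags, lay 5454 bp from its TSS, and which gene this and other distant peaks act on was not tested. *Numb*, an inhibitor of Notch, reached 1223 tags, and the corepressor *Ctbp1* reached 995.5. The 5 genes with no peak were the glycosyltransferase *Lfng*, the non-canonical ligand *Dlk1*, the corepressor *Cir1*, and *Itch* and *Dtx3l*, which belong to families of ubiquitin ligases.

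Signalling genes outside the pathway were counted for comparison, with no test between the lists. Of 15 VEGF and angiopoietin ligands and receptors, 14 (93.3%) had a *Smyd1-KO*-enriched peak and 10 (66.7%) had one within 1 kb of a TSS. Of 9 neuregulin, ErbB and *Bmp10* genes, 7 (77.8%) had a peak, each within 1 kb of a TSS. The shares over all protein-coding genes were 62.6% and 48.1%. The median of the highest score per gene was 513 tags for the Notch receptors, ligands and HEY effectors, 551 for the other Notch pathway genes, 235.75 for the VEGF list and 272.5 for the neuregulin list. CpG-rich promoters were found at 9 of 10, 38 of 51, 7 of 15 and 6 of 9 of these genes in the same order, and their part in the scores was not tested.

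**Figure D4:**
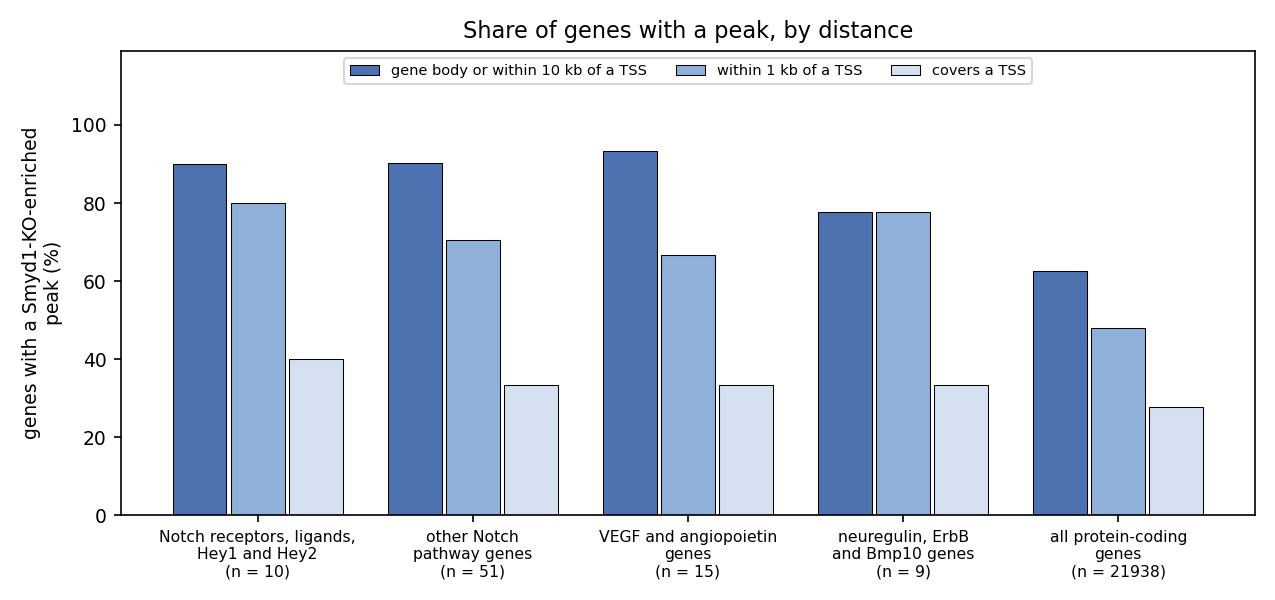
Percent of genes with a *Smyd1-KO*-enriched peak in 4 gene lists and in all protein-coding genes (n under each name), counted in the gene body or within 10 kb of a TSS, within 1 kb of a TSS, and over a TSS. The Notch genes stand at 9, 8 and 4 of 10, and all protein-coding genes at 62.6%, 48.1% and 27.8%.

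The peaks were mapped in whole hearts, in which Notch receptors and ligands are used mainly by the endocardium, and the assay does not separate cell types. More cells of a type with open chromatin and more opening per cell cannot be told apart in such samples. Under the same rule, *Smyd1-KO*-enriched peaks were found at 6 of 6 cardiomyocyte marker genes (highest score per gene 280 to 619.5 tags), 4 of 6 endothelial and endocardial ones (79.5 to 165.5), 2 of 6 erythroid ones (431 and 677.5) and 2 of 6 smooth muscle and mesenchyme ones (293 and 593), beside 62.6% of all protein-coding genes. The cardiomyocyte markers *Myh6* and *Myh7* shared their highest-scoring peak, at 464 tags. The endothelial markers *Cdh5* and *Emcn* had none, and no marker gene had a WT-enriched peak. These lists give the score of a peak in the genotype of its call only and leave out peaks that did not differ, so they were not used to say which cells the hearts held. *Smyd1* itself had 2 *Smyd1-KO*-enriched peaks, neither within 1 kb of a TSS, and no WT-enriched peak, which does not test the deletion.

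The 10 kb limit decided some of the counts. The *Dll4* peak at 9470 bp and the upstream *Jag2* peak at 9177 bp were the last ones inside it, with 292 and 310 tags. Between 10 and 20 kb lay 10 more peaks at 7 of the genes, with scores from 38.5 to 1107 tags. Of these 10, 6 were nearest to the TSS of another protein-coding gene, as with the 1107-tag peak beside *Rnf5* near *Notch4* and the 1027.5-tag peak beside *Sec16a* near *Notch1*. The first peaks outside that had the Notch gene itself as the nearest gene were at *Jag1* (11692 bp, 102 tags) and *Jag2* (12245 bp, 110 tags). The nearest WT-enriched peak to any of the 10 genes lay 410.4 kb away, on the side of *Jag1*.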

How the data were processed

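Nuclei from dissociated hearts were treated with Tn5 transposase, and the libraries were sequenced. The authors aligned reads to mm10 with BWA-MEM, called peaks with HOMER and kept those with a 2-fold difference. The deposited value of each peak is a signal, the authors' pooled tag value in the genotype of the call. All *Smyd1-KO* scores are multiples of 0.5 and so are not plain tag counts. How the step arose was not tested, and the Poisson intervals on them (95%) are approximate. The methods set a single sequencing depth for all libraries, and the lists do not show the depth each reached. The handling of duplicate reads and of the Tn5 offset is not given in the sources used here.

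Peaks were placed on GENCODE M21 genes with Python 3.11.15, pandas 2.3.3 and scipy 1.17.1. BED starts were read as 0-based. Distances ran from the nearer peak edge. All 10 genes were described, with their number of peaks, highest score and peak nearest a TSS; of the other Notch pathway genes, the 6 with the highest score and all without a peak were named. The placing was checked on simulated peaks. No test compared genotypes, since libraries were pooled. The members, lists and motifs were chosen with earlier results of these data known. Alternatives covered the TSS distance, the transcripts, the score, merging and repeats.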

Additional observations from a re-analysis of the deposited data

How the results depend on the processing

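No paired analysis was possible because both lists were made from pooled libraries, and for the same reason no library could be left out. Of 327 values under alternative settings, 293 stayed the same by the limits used (within 1.5 times a count or within the counting interval of a score) and 34 moved. Some settings could not change the values of these genes. All 15 peaks scored at least 175 tags, above the 100-tag limit, and none was over 50% masked as repeats. The number of genes with a peak was 9, and ranged from 7 to 10. It was 8 with a TSS distance of 3 or 5 kb (all protein-coding genes 56.7% and 58.2%), or with protein-coding or basic transcripts only (61.5% and 61.6%), where *Dll4* lost its peak, and 10 with 20 kb (69%), where *Dll1* gained one. The 15 peaks became 25 with 20 kb. Genes with a peak near a TSS fell from 8 to 4 when the peak had to cover it (all protein-coding genes from 48.1% to 27.8%). The median score of 317.5 tags rose to 488 with 3 kb and with 5 kb, to 474 with protein-coding or basic transcripts, and to 395.75 among peaks at or above the list's median. In alternatives chosen after seeing the data, it was 474 when only the main coding TSS counted and 474 when each peak went to the nearest main coding TSS. *Notch4* and *Dll4* then had no peak, which left 7 genes (all protein-coding genes 55.3% and 51.8%). With 50 bp added on either side, matches to TGGGAA rose from 1 to 3 of the 15 peaks (20.7% of all peaks), and those to GTGGGAA and CACGTG each from 0 to 1 (5.06% and 5.44% of all peaks). Counting error limits the scores, and the spread between libraries is unknown.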
